A study of Mus musculus with 6 samples.

Results

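The BAFF, CD40 and lymphotoxin system is described here as 10 genes of the tumour necrosis factor (TNF) family: the receptor genes Tnfrsf13c, Tnfrsf13b, Tnfrsf17, Cd40, Cd27, Tnfrsf1a and Tnfrsf1b and the ligand genes Ltb, Lta and Tnf. Every probe set of the array that is annotated to 1 of these symbols alone was taken, which gave 13 probe sets for the 10 genes, out of 45037 non-control probe sets and 18193 gene symbols. Of the genes, 8 had 1 probe set, Cd40 had 3 and Tnfrsf1b had 2. The RNA came from untreated bone marrow B cells of C57BL/6 mice aged 8 to 12 weeks, with sex given as mix, hybridised to 6 Affymetrix arrays in 3 groups of 2. The groups were TAK1-deficient Igκ+ cells (genotype label mb-1/TAK1f/f), wild-type Igλ+ cells and wild-type Igκ+ cells (both mb-1/TAK1+/+). TAK1 is the kinase encoded by Map3k7, and mb-1, which all the groups carry in their label, is another name of Cd79a. Cells with CD3, Ter119, CD11b, DX5 or Gr1 on their surface were removed before the sort on the light chain. Neither pooling of animals, nor the extent of deletion, nor the driver of the deletion is stated in the labels, and the names TAK1-deficient and wild-type are used only for these label groups.

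BAFF is a survival factor for B cells. Its receptor BAFF-R, encoded by Tnfrsf13c, works mainly through the non-canonical NF-κB pathway, in which TRAF adaptors restrain the kinase NIK until the receptor is engaged. TACI, encoded by Tnfrsf13b, and BCMA, encoded by Tnfrsf17, bind BAFF and the related ligand APRIL, and BCMA is best known from plasma cells. CD40 receives help from T cells and activates both NF-κB pathways, and TAK1 acts in the canonical one. Lymphotoxin β, made from Ltb, is held on the B cell surface in a complex with lymphotoxin α, made from Lta, and this complex organises lymphoid tissue through its receptor on stromal cells.

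Ltb, Tnf and Lta lie next to each other on mouse chromosome 17. Their promoters are shown because these ligand genes had unlike values in the genotype comparison as deposited, together with the promoter of Tnfrsf13b, a receptor gene that fell. With the 4 other scalings described below Tnf was lower and passed, as Ltb and Lta did. The sequences are from RefSeq (GRCm38.p6) and run from 250 bases before to 50 bases after the annotated start, and 9 of the 10 members had an entry. Capitals mark matches to the NF-κB consensus, a 10-letter motif searched on both strands.
Ltb, chr17:35194257-35194556, plus strand: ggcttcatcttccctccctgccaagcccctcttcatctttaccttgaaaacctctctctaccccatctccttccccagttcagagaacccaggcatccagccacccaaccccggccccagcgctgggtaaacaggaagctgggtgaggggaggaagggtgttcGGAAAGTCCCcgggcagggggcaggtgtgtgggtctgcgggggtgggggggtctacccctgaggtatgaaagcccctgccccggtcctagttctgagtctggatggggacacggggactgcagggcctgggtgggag
Lta, chr17:35205302-35205601, minus strand: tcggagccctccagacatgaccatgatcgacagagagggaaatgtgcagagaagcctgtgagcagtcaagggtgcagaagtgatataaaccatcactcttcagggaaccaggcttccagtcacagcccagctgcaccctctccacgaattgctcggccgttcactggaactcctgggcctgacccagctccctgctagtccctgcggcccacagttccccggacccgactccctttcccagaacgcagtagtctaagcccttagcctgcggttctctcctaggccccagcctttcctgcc
Tnf, chr17:35201958-35202257, minus strand: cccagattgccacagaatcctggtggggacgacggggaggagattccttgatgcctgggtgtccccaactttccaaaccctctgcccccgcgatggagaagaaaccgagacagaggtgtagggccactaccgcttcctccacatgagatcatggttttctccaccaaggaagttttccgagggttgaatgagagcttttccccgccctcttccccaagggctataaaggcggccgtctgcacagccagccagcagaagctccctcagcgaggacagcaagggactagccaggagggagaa
Tnfrsf13b, chr11:61126505-61126804, plus strand: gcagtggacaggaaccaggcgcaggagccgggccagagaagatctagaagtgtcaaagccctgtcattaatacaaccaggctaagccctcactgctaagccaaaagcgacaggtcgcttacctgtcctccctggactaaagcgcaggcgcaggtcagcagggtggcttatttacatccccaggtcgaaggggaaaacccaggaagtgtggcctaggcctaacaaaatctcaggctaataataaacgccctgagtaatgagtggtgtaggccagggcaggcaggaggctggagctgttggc
The Ltb window held 1 match, GGAAAGTCCC, whose first base is base 164 of the window, and the other 8 windows held none. The motif was found in 8.46% of all 32851 promoter windows of this length (2779 windows). A match describes these letters and does not show binding, and a window with no match says nothing of the factor.

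All 8 B cell markers with a single-gene probe set, Cd79a, Cd79b and Ms4a1 among them, lay above the unspiked controls on every array. On both TAK1-deficient arrays so did 6 of 6 plasma cell, 6 of 6 stromal and endothelial, 8 of 9 granulocyte and 7 of 9 T cell markers. Of the monocyte markers 6 of 8 did, and of the NK cell markers 2 of 6. Since most markers of several unlike lists met it, this criterion does not tell those cell types apart. Summed over the leading probe sets, B cell marker signals were 55648 to 85837 on the 6 arrays and granulocyte ones 316 to 37296. "Above the unspiked controls" means above the 95th percentile of 27 bacterial control probe sets for which no RNA had been added. That level was 77.7 and 75.7 on the TAK1-deficient arrays and between 10.3 and 17.4 on the others. The TAK1-deficient arrays stood apart from the wild-type ones. Their median signal was 323 to 324 against 44.9 to 59.1, their spiked hybridization controls had a geometric mean of 41197 to 47043 against 3985 to 4608, and their 3′ over 5′ ratio for Actb was 4.18 to 6.28 against 1.25 to 1.58. Across probe sets, Pearson's r was 0.432 to 0.510 for arrays of unlike genotype, 0.919 for the TAK1-deficient pair and 0.962 to 0.984 among the wild-type arrays. Genotype and these properties of the arrays cannot be told apart in any difference below. Map3k7, the targeted gene, had signals of 346 and 599 in TAK1-deficient cells, 2149 and 1957 in wild-type Igλ+ cells and 2196 and 1805 in wild-type Igκ+ cells at the leading of its 6 probe sets, the one with the highest wild-type mean. The genotype difference there was -2.09 ± 0.29 on the log2 scale (SE; limma, Benjamini-Hochberg adjusted p = 0.000437), and it ran between -2.33 and 0.30 over the 6. With the level adjustment described below, the difference at the leading probe set was -0.62 and did not pass. Whether the probes of Map3k7 lie in the deleted part is not known, so this is no check of the deletion.

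The first comparison set TAK1-deficient against wild-type Igκ+ cells, asking what loss of the kinase changes in these genes. The lymphotoxin genes Ltb and Lta, the TACI gene Tnfrsf13b and Cd40 were lower in TAK1-deficient cells, and Tnfrsf17 was higher. At their leading probe sets the other 5 members, the BAFF-R gene Tnfrsf13c included, did not pass the test as deposited, and a dimmer probe set of Tnfrsf1b was higher. Signals were compared as log2(signal + 16) with limma over all 45037 probe sets, with a threshold of 0.05 on the Benjamini-Hochberg adjusted p. The added 16 makes the change of dim probe sets look smaller than it is. Of the 13 member probe sets 6 fell and 2 rose (46.2% and 15.4%), while 21.8% of all probe sets fell and 56.8% rose, 78.6% in all. At an unadjusted p under 0.05 the counts were 8 of 13 members and 80.1% of all probe sets. These shares follow the wild-type level. Among the 10% of probe sets that were brightest on the wild-type arrays, which held 6 of the member probe sets, 86.0% fell, so that the 5 of 6 that fell there are near the background. The median log2 difference was -0.34 over the member probe sets and 1.53 over all probe sets, and it was -1.46 in that brightest group. In bulk RNA, fewer cells of a type and less RNA per cell cannot be told apart.

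**Figure D1:**
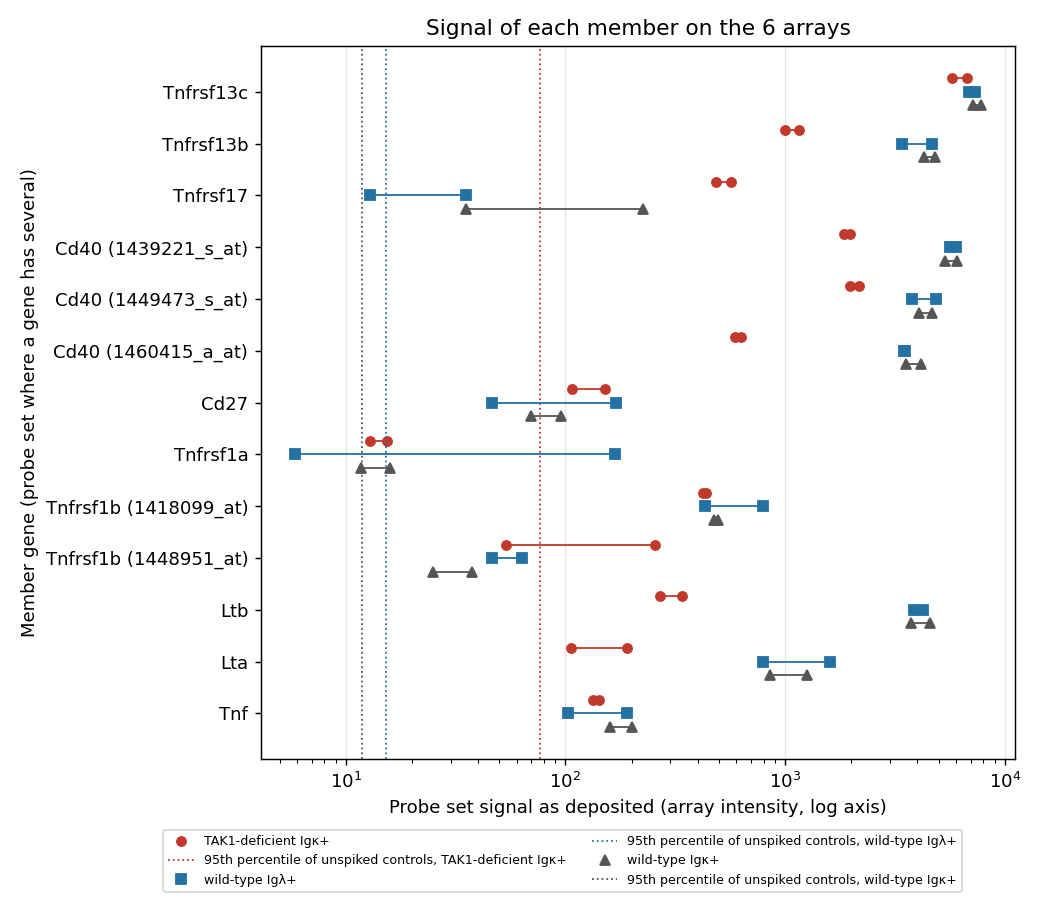
Deposited signal of each member probe set on the 6 arrays, on a log axis, with both arrays of a group joined by a line and the dotted lines at the mean 95th percentile of the unspiked controls of each group. Ltb lay at 270.2 and 339 on the TAK1-deficient arrays, far below the 3736 to 4553 of the wild-type arrays, while Tnfrsf13c lay between 5756 and 7805 on all arrays.

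Among the BAFF receptors, Tnfrsf13c had signals of 5756 and 6751 in TAK1-deficient Igκ+ cells, 6900 and 7342 in wild-type Igλ+ cells and 7139 and 7805 in wild-type Igκ+ cells. The TAK1-deficient arrays were the lowest, and they did not overlap with the wild-type Igκ+ arrays, as for 90.3% of all probe sets. The log2 difference was -0.26 ± 0.12 (SE; 95% interval -0.53 to 0.01) and did not pass (limma, Benjamini-Hochberg adjusted p = 0.0742). The rank of this probe set within an array was much the same in the groups, at percentiles 99.1 and 99.2 of all probe sets in TAK1-deficient cells and 99.1 to 99.3 in wild-type cells.

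Tnfrsf13b, the gene of TACI, had 1000.1 and 1155 in TAK1-deficient cells, 3399 and 4651 in wild-type Igλ+ cells and 4275 and 4805 in wild-type Igκ+ cells. Both TAK1-deficient arrays lay below all 4 wild-type arrays. The log2 difference between the genotypes in Igκ+ cells was -2.06 ± 0.20 (SE), which passed (limma, Benjamini-Hochberg adjusted p = 6.86e-05). Its mean signal in TAK1-deficient cells was 23.7% of that in wild-type Igκ+ cells, and its percentile within the array was 85.4 and 88.4, against 95.2 to 97.5 for wild-type cells.

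Tnfrsf17, the gene of BCMA, went the other way, with 567 and 483 in TAK1-deficient cells, 35.2 and 12.9 in wild-type Igλ+ cells and 227 and 35.2 in wild-type Igκ+ cells. Both TAK1-deficient arrays were the highest, and both wild-type groups spread widely, with Igλ+ replicate 2 not above the unspiked controls. The log2 difference was 2.27 ± 0.69 (SE; limma, Benjamini-Hochberg adjusted p = 0.0186). The call was lost without TAK1-deficient replicate 1 or 2 (log2 2.16 and 2.39, limma, adjusted p = 0.0756 and 0.0551) and without wild-type Igκ+ replicate 2 (1.15, adjusted p = 0.0724). Probe sets of a like wild-type level rose in general, with 82.7% of the 4504 in the same level class called higher. The other 6 plasma cell markers had a summed signal of 4641 and 6106 in TAK1-deficient cells, 20615 and 9945 in wild-type Igλ+ cells and 30112 and 22031 in wild-type Igκ+ cells, and all 6 were above the unspiked controls on every array. Igha and Jchain were a large part of the wild-type Igκ+ sums, with 10263 and 7531 and with 9837 and 4130. Prdm1 rose, with 391 and 759 in TAK1-deficient cells, 71.7 and 90.5 in wild-type Igλ+ cells and 219 and 107 in wild-type Igκ+ cells. Of all 7 plasma cell markers, Tnfrsf17 included, 5 fell and 2 rose, against 21.8% and 56.8% of all probe sets. With the level adjustment described below 2 fell and 0 rose. The part of the other 6 markers in the Tnfrsf17 difference was not tested.

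Cd40, the receptor for T cell help, fell at all 3 probe sets, by unequal amounts. At the brightest (1439221_s_at) the signals were 1978 and 1853 in TAK1-deficient cells, 5992 and 5629 in wild-type Igλ+ cells and 6046 and 5344 in wild-type Igκ+ cells, and at another (1460415_a_at) they were 632 and 593, 3483 and 3531, and 3534 and 4137. The groups of different genotype did not overlap at any of the 3. The log2 differences between TAK1-deficient and wild-type Igκ+ cells were -1.56 ± 0.13, -1.07 ± 0.17 and -2.61 ± 0.17 (SE) at 1439221_s_at, 1449473_s_at and 1460415_a_at (limma, Benjamini-Hochberg adjusted p = 3.79e-05, 0.000903 and 1.51e-05). The 95% interval of the last, -3.02 to -2.20, does not meet those of the other two, -1.87 to -1.25 and -1.47 to -0.66. These probe sets read the same gene and are not replicates.

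Ltb, the membrane-bound lymphotoxin gene, had the largest difference of the members. Its signals were 270.2 and 339 in TAK1-deficient cells, 4227 and 3852 in wild-type Igλ+ cells and 3736 and 4553 in wild-type Igκ+ cells, so the brighter TAK1-deficient array had 9.08% of the signal of the dimmest wild-type one. The log2 difference was -3.70 ± 0.21 (SE; 95% interval -4.19 to -3.21; limma, Benjamini-Hochberg adjusted p = 1.08e-05), and 0.264% of all probe sets had a log2 difference as low or lower. Within the array it stood at percentiles 43.4 and 51.9 in TAK1-deficient cells, against 96.0 to 97.0 for wild-type cells.

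Lta, its partner, had 106 and 190.4 in TAK1-deficient cells, 1595 and 796 in wild-type Igλ+ cells and 1257 and 851 in wild-type Igκ+ cells. The TAK1-deficient arrays lay below all wild-type arrays, which themselves spread over 2.004-fold. The log2 difference was -2.73 ± 0.44 (SE; limma, Benjamini-Hochberg adjusted p = 0.000862), and its percentile within the array was 17.6 and 31.8, against 79.4 to 87.5 for wild-type cells.

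Tnf, which encodes the secreted and membrane-bound ligand TNF and lies between Ltb and Lta, had 142 and 134 in TAK1-deficient cells, 191 and 102 in wild-type Igλ+ cells and 159 and 200.5 in wild-type Igκ+ cells. The TAK1-deficient arrays lay inside the range of the wild-type arrays. The log2 difference to wild-type Igκ+ cells was -0.34 ± 0.36 (SE; 95% interval -1.18 to 0.50) and did not pass (limma, Benjamini-Hochberg adjusted p = 0.402). Within the array Tnf stood at percentiles 23.4 and 22.6 in TAK1-deficient cells and 56.0 to 64.7 in wild-type cells.

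The TNF receptor genes and Cd27 did not pass as deposited at their leading probe sets. Tnfrsf1b, the gene of the type 2 TNF receptor, had 421 and 436 in TAK1-deficient cells, 790.4 and 434 in wild-type Igλ+ cells and 472 and 495 in wild-type Igκ+ cells at its brighter probe set (1418099_at), with a log2 difference of -0.17 ± 0.34 (SE; 95% interval -0.96 to 0.63; limma, Benjamini-Hochberg adjusted p = 0.656). Its second probe set (1448951_at) had 53.4 and 257, 63.8 and 46.4, and 37.7 and 24.9, and was higher by 1.55 ± 0.60 in log2 units (SE; limma, Benjamini-Hochberg adjusted p = 0.0464). That call rests on TAK1-deficient replicate 2, since replicate 1 was below the unspiked controls of its array and without replicate 2 the value was 0.57 (limma, adjusted p = 0.245). It was also lost without wild-type Igκ+ replicate 1 (1.75, limma, adjusted p = 0.104) or replicate 2 (1.36, limma, adjusted p = 0.185). With the 4 other scalings described below the value was negative and did not pass, between -0.98 and -0.78, and the call was also lost with a pseudocount of 64 and in 3 other forms of the fit.

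Cd27, the gene of the receptor for CD70, had 151 and 107 in TAK1-deficient cells, 170 and 46.2 in wild-type Igλ+ cells and 70.01 and 95.7 in wild-type Igκ+ cells. The log2 difference was 0.55 ± 0.52 (SE; 95% interval -0.68 to 1.78; limma, Benjamini-Hochberg adjusted p = 0.355). Tnfrsf1a, the gene of the type 1 TNF receptor, had 12.9 and 15.5 in TAK1-deficient cells, 169 and 5.90 in wild-type Igλ+ cells and 15.99 and 11.7 in wild-type Igκ+ cells. It was not above the unspiked controls on either TAK1-deficient array or on wild-type Igλ+ replicate 2 and barely above them on the wild-type Igκ+ arrays, so no fold is given. In all, 8 of the 10 members were above the unspiked controls on all 4 wild-type arrays, and 9 on both TAK1-deficient arrays.

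**Figure D2:**
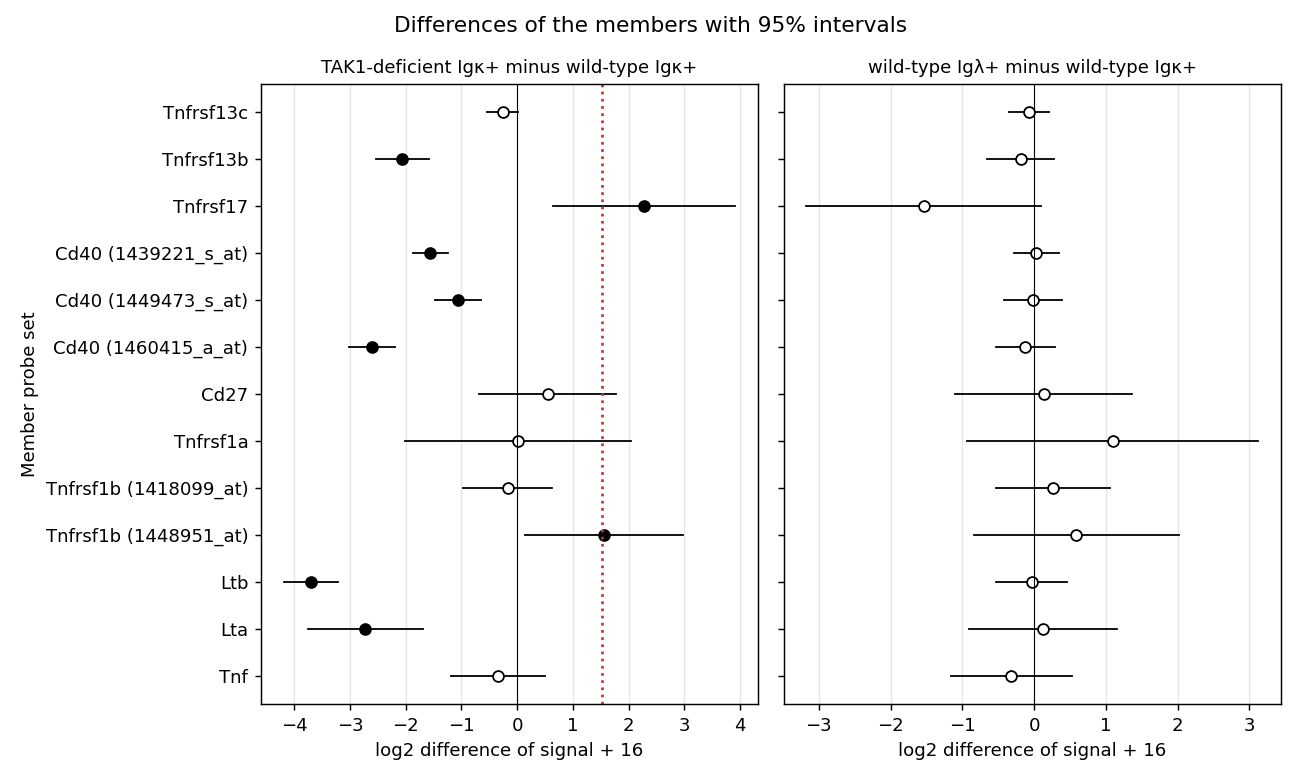
Log2 differences of the 13 member probe sets with 95% intervals. The left panel sets TAK1-deficient cells against wild-type Igκ+ cells and the right panel wild-type Igλ+ against Igκ+ cells; filled circles passed the test and the dotted line is the median of all probe sets, 1.53. On the left Ltb, at -3.70, is lowest, and on the right all 13 intervals include 0.

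Since the deposited scaling sets each array to the same trimmed mean, each difference was also taken with 4 other scalings. The median log2 difference over all probe sets was 1.53 for the deposited signals, -0.19 once they were quantile normalized, -0.85 with median centring, -0.86 with scaling on the spiked controls and -0.01 with the level adjustment, in which the trend of each TAK1-deficient array against the wild-type level was removed. The share of higher among all called probe sets was 72.3%, 44.2%, 33.3%, 29.7% and 54.2% in the same order. Ltb, Lta and Tnfrsf13b were lower and passed with all 5 scalings. Their smallest differences, with the level adjustment, were -2.36 for Ltb (limma, Benjamini-Hochberg adjusted p = 0.000422), -1.57 for Lta (0.0229) and -0.74 for Tnfrsf13b (0.0170). Their largest, with spiked-control scaling, were -6.91, -5.70 and -5.44. Cd40 at its brightest probe set was lower with all 5 and passed with 4, not with the level adjustment (-0.40, limma, adjusted p = 0.0577). Of its other probe sets, 1460415_a_at passed there (-1.22, limma, adjusted p = 0.00191) and 1449473_s_at turned to 0.24 (limma, adjusted p = 0.266).

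The remaining members changed call or sign with the scaling. Tnfrsf13c was lower with 4 scalings and passed with median centring (-2.64) and spiked-control scaling (-3.71), but with the level adjustment it was higher, by 0.77 ± 0.10 (SE; limma, Benjamini-Hochberg adjusted p = 0.00126). Tnf was lower with all 5 and passed with the 4 other than the deposited one, from -1.29 with the level adjustment to -3.26 with spiked-control scaling. The rise of Tnfrsf17 passed only as deposited, among these 5, and it stood at 0.96 after quantile normalization, 0.10 with the level adjustment, -0.11 with median centring and -0.87 with spiked-control scaling. Tnfrsf1b at its leading probe set was lower with 4 scalings and passed with quantile normalization (-1.34, limma, adjusted p = 0.00715), median centring (-2.55, 0.000409) and spiked-control scaling (-3.42, 1.38e-05), but stood at 0.35 with the level adjustment. Cd27 was lower and passed with the same 3 (-1.84, -1.83 and -2.27, limma, adjusted p = 0.00931, 0.0169 and 0.0051), and its -1.07 with the level adjustment did not pass. Of the 13 member probe sets, 6 fell and 1 rose with the level adjustment, when 19.9% of all probe sets fell and 23.6% rose, 43.5% in all. The 6 include Tnfrsf1a (-2.63, limma, adjusted p = 0.0416), which also passed with median centring (-2.36, limma, adjusted p = 0.0388). It was not above the unspiked controls on either TAK1-deficient array, so these values cannot be read as a change.

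**Figure D3:**
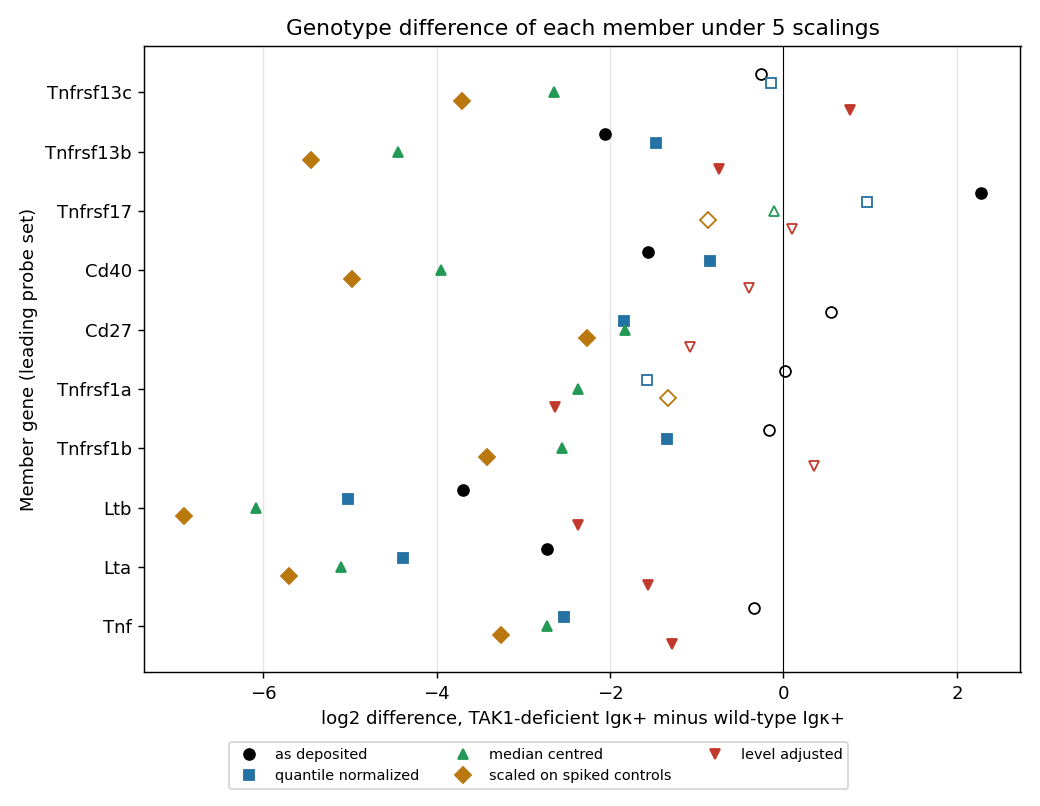
Log2 difference between TAK1-deficient and wild-type Igκ+ cells for the leading probe set of each member under 5 scalings, filled where it passed the test and open where it did not. Ltb, Lta and Tnfrsf13b are filled and left of 0 throughout, while Tnfrsf17 runs from -0.87 to 2.27.

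The differences of all probe sets against their wild-type level show where the members stand. The dimmest 10% of probe sets had a median log2 difference of 3.12 and the brightest 10% a median of -1.46. Taken from this slope by the level adjustment, the leading probe sets of the members ran from -2.63 for Tnfrsf1a to 0.77 for Tnfrsf13c. Ltb was at -2.36 and Lta at -1.57. Tnfrsf1a was not above the unspiked controls on either TAK1-deficient array, so its value is a fitted one only.

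**Figure D4:**
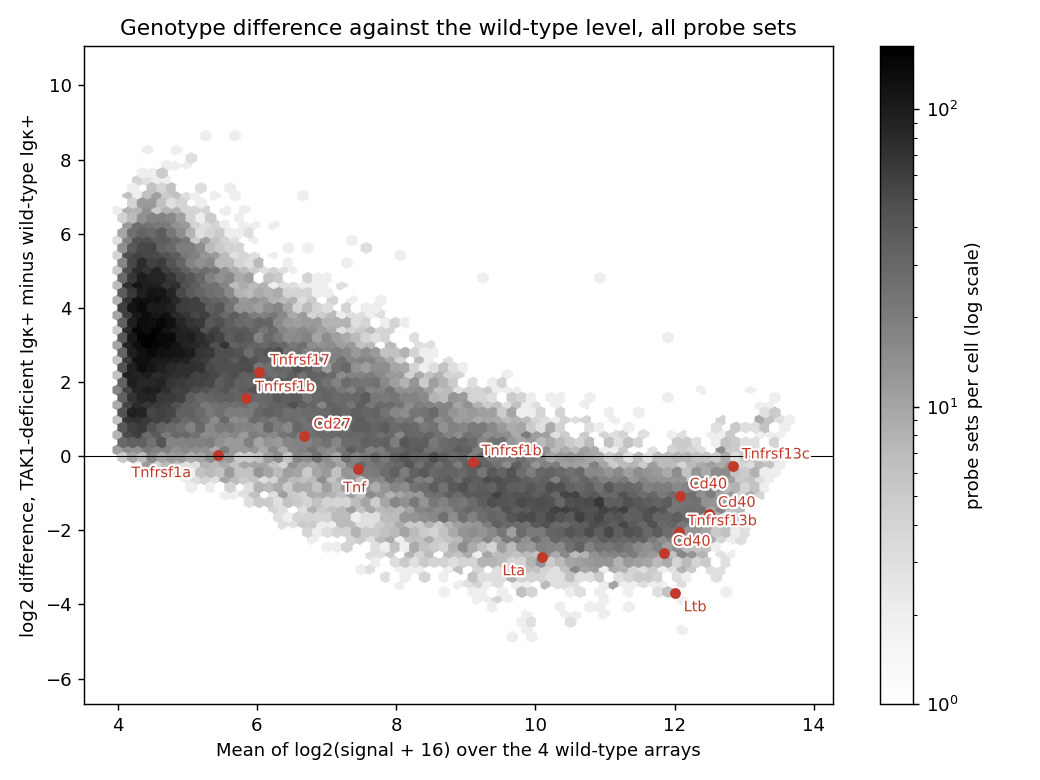
Log2 difference between TAK1-deficient and wild-type Igκ+ cells against the mean log2(signal + 16) of the 4 wild-type arrays, for all 45037 probe sets in grey (darker cells hold more) and the 13 member probe sets as labelled points. Ltb, at -3.70, lies below most probe sets of its level, and Tnfrsf13c, at -0.26, lies near the upper edge at the bright end.

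Other genes of the pathway were taken from 5 lists of ligands, receptors, adaptors, non-canonical NF-κB genes and B cell genes that respond to BAFF or CD40, 28 genes of which 24 had a single-gene probe set. In TAK1-deficient against wild-type Igκ+ cells 14 fell and 5 rose at the leading probe set, against 21.8% and 56.8% of all probe sets, with a median log2 difference of -1.47. These counts follow the wild-type level too. Of the 16 pathway genes in the brightest 30% of probe sets 14 fell, where 67.2% of all probe sets did, and of the 6 in the dimmest 50% 4 rose, where 89.1% of all did. With the level adjustment 9 fell and 1 rose, against 19.9% and 23.6% of all probe sets, with a median of -0.56. All 8 adaptors were among the brightest 30%, and 6 of them fell. Traf2, an adaptor of TNF receptors and CD40, had 86.2 and 28.0 in TAK1-deficient cells, 793 and 364 in wild-type Igλ+ cells and 480.5 and 609 in wild-type Igκ+ cells (log2 difference -3.05 ± 0.52 SE, limma, adjusted p = 0.00116). Only 1 of its TAK1-deficient arrays, replicate 1, was above the unspiked controls. Traf5, Birc3 and Tradd, which encode an adaptor, an inhibitor of apoptosis bound to TRAFs and the adaptor of the type 1 TNF receptor, fell by 2.03, 1.96 and 1.88 on the log2 scale. These values are for the leading probe sets, and a second one of Traf5 went the other way, by 2.01 (limma, adjusted p = 0.000708). With the level adjustment 2 of the 8 adaptors fell, against 19.9% of all probe sets. They were Traf2 and Birc3 (-2.52 and -0.75, limma, adjusted p = 0.00835 and 0.0126). Traf5 and Tradd did not pass then (-0.54 and -0.44, limma, adjusted p = 0.0884 and 0.0542).

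All 3 non-canonical NF-κB genes, also among the brightest 30%, fell at their leading probe sets. Map3k14, the gene of NIK, had 48.7 and 32.1 in TAK1-deficient cells, 750.1 and 529 in wild-type Igλ+ cells and 616 and 492 in wild-type Igκ+ cells. These TAK1-deficient signals were not above the unspiked controls. As deposited, this probe set was thus at least 7.18-fold lower than in wild-type Igκ+ cells (limma, adjusted p = 7.72e-05). The fold was taken against the level of those controls where that was higher. The bound does not hold for the gene as a whole, since its second probe set had 337 and 256 in TAK1-deficient cells, 193 and 149.9 in wild-type Igλ+ cells and 219.9 and 158 in wild-type Igκ+ cells, above the controls on every array, with a log2 difference of 0.61 that did not pass (limma, adjusted p = 0.120). Relb and Nfkb2, subunit genes, fell by 1.81 and 1.51, and with the level adjustment their differences were -0.57 and -0.08 and did not pass (limma, adjusted p = 0.144 and 0.842). A second probe set of Nfkb2 was higher, by 1.53 (limma, adjusted p = 0.00633). Of the B cell genes that respond to BAFF or CD40, 5 of 7 fell, all 5 of them among the brightest 30%, and Cd80 rose. As deposited, the leading probe set of the costimulatory gene Cd86 was at least 8.27-fold lower (limma, adjusted p = 2.56e-05). Cd86 had 20.3 and 21.6 there in TAK1-deficient cells, not above the unspiked controls, 685 and 520 in wild-type Igλ+ cells and 534 and 753 in wild-type Igκ+ cells. Its second probe set was above the controls on every array, with 215 and 296, 699.8 and 445, and 656 and 602 in the same order, and its log2 difference of -1.26 ± 0.33 (SE) was smaller (limma, adjusted p = 0.00925). Cd80, its relative, had 904 and 965, 38.3 and 79.3, and 74.6 and 73.6 in the same order (log2 difference 3.40 ± 0.35 SE, limma, adjusted p = 8.99e-05). Icosl, the ligand gene of the T cell receptor ICOS, and Fcer2a, the gene of CD23, fell by 2.22 and 2.13, though a second Icosl probe set was at 0.48 (limma, adjusted p = 0.242).

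Of the 4 other ligand genes 3 rose at their leading probe sets. They were Cd70, Tnfsf13b and Cd40lg, which encode the ligands of CD27, of the BAFF receptors and of CD40. All 4 leading probe sets were in the dimmest 50% of probe sets, where 89.1% rose. Cd40lg was above the unspiked controls on only 1 of the TAK1-deficient arrays, with 100.5 and 45.3. Tnfsf13b, the BAFF gene, had 314 and 410.2 in TAK1-deficient cells, 39.8 and 30.2 in wild-type Igλ+ cells and 30.3 and 24.2 in wild-type Igκ+ cells (log2 difference 3.12 ± 0.29 SE, limma, adjusted p = 6.1e-05). As deposited, Cd70 was at least 17.7-fold and the lymphotoxin β receptor gene Ltbr at least 41.3-fold higher than in wild-type Igκ+ cells (limma, adjusted p = 0.000127 and 0.00127). Neither was above the unspiked controls there. These bounds hold for the deposited scale alone. Ltbr had 111 and 3.51 on wild-type Igλ+ replicates 1 and 2. With the level adjustment none of the rises of these ligand genes and Ltbr passed at the leading probe sets. Cd70 was then at 0.28 and Ltbr at 1.59 (limma, adjusted p = 0.566 and 0.137), and Cd40lg turned to -1.76 (limma, adjusted p = 0.0101). Summed signals of T cell markers were 2988 and 3265 in TAK1-deficient cells against 269 to 462 for wild-type cells, with 7 of 9 above the unspiked controls in both Igκ+ groups. Those of stromal and endothelial markers were 4212 and 4064 against 977 to 1272, with 6 of 6 above in TAK1-deficient and 3 of 6 in wild-type Igκ+ cells. As deposited, 7 of 9 T cell and 5 of 6 stromal and endothelial markers rose at the leading probe set, against 56.8% of all probe sets. Their median log2 differences were 2.93 and 3.57. With the level adjustment 1 of 9 and 1 of 6 rose, against 23.6% of all, with medians of 0.32 and 0.97, and 2 T cell markers fell. The part of these markers in the rises of the ligand genes and Ltbr was not tested.

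The second comparison set wild-type Igλ+ against wild-type Igκ+ cells, asking whether cells that use the other light chain differ in these genes. None of the 13 member probe sets passed (limma, Benjamini-Hochberg), and 0 had an unadjusted p under 0.05. Over all probe sets 0 passed (0% of 45037) and 1.98% had an unadjusted p under 0.05. The bright members were held closely. The log2 difference of Igλ+ minus Igκ+ cells was -0.07 for Tnfrsf13c (95% interval -0.34 to 0.21), 0.03 for Cd40 (-0.28 to 0.34), -0.03 for Ltb (-0.52 to 0.46) and -0.19 for Tnfrsf13b (-0.66 to 0.28). These intervals leave out differences of 1 log2 unit, and Lta, at 0.12 (-0.91 to 1.15), does not. The groups did not overlap for 3 of the 13 member probe sets, or 23.1%, against 27.1% of all probe sets.

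At their leading probe sets the dimmer members varied between replicates as much as between the groups. The second Tnfrsf1b probe set had 63.8 and 46.4 in Igλ+ cells and 37.7 and 24.9 in Igκ+ cells (log2 difference 0.59), without overlap, and did not pass. Tnfrsf17 had a log2 difference of -1.54 (95% interval -3.17 to 0.10; limma, unadjusted p = 0.0621), with the 35.2 of Igλ+ replicate 1 next to the 35.2 of Igκ+ replicate 2 and 227 on Igκ+ replicate 1. It was -0.41 without Igκ+ replicate 1. Among the wild-type arrays the plasma cell marker sum given above was also highest on Igκ+ replicate 1 and lowest on Igλ+ replicate 2. The part of that sum in this difference was not tested. Igλ+ replicate 1 had the highest wild-type signal of 4 members, Lta, Tnfrsf1a, Tnfrsf1b and Cd27. Tnfrsf1a had 169 there and 5.90 to 15.99 on the other wild-type arrays. Granulocyte markers summed to 37296 and 329 on Igλ+ replicates 1 and 2 and to 5255 and 316 on Igκ+ replicates 1 and 2, and monocyte markers to 10468 and 547 and to 2237 and 955. Of the 9 granulocyte markers 5 were above the unspiked controls on both Igλ+ and 6 on both Igκ+ arrays, and of the 8 monocyte markers 6 and 7. Their part in the signals of these members was not tested. Without Igλ+ replicate 1 the Igλ+ minus Igκ+ difference was -0.44 for Tnfrsf1a, -0.37 for Lta, -0.15 for Tnfrsf1b and -0.66 for Cd27, where it had been 1.10, 0.12, 0.27 and 0.13. Among the other pathway genes 0 of 24 passed (limma, Benjamini-Hochberg) and 0 had an unadjusted p under 0.05, with a median of 0.04.

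Likeness over the 6 arrays was measured with Pearson's r among 15754 to 15757 probe sets of other genes with a wild-type mean above the 60th percentile. Ltb was most like Fam111a (r = 0.99996), Tnfrsf13b like Inpp4a (0.99992), Cd40 like Dhx57 (0.99986) and Lta like Tnk2 (0.99946), but 5972, 4764, 5794 and 4051 probe sets had an r above 0.95 with them. For Tnfrsf13c, most like Lamc1 (0.994), there were 102. For the other members there were 4 to 32, with Rrm2 nearest to Tnfrsf17 (0.984), Bola3 to Tnf (0.978), Ikbke to Tnfrsf1a (0.997), Tbc1d22a to Tnfrsf1b (0.988) and Mrpl46 to Cd27 (0.974). All points share the arrays and their scaling. For Ltb, Tnfrsf13b, Cd40 and Lta a high r shows mostly the split between TAK1-deficient and wild-type arrays. Tnfrsf1a, Tnfrsf1b and Cd27 had no such split and were highest on wild-type Igλ+ replicate 1, at 169, 790 and 170.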

How the data were processed

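The deposited values are probe set signals (array intensities on a linear scale) that the authors made with MAS5, as the submitters' processing notes name it, with no version given. The deposited signals of each array have a mean of 500 over the probe sets between the outermost 2% at either end. Genes were named from the platform annotation: 34945 probe sets had 1 symbol, 932 several, 9160 none and 64 were controls. Of the listed pathway genes, Tnfsf13, Traf3, Ripk1 and Chuk had no probe set of 1 symbol and were not analysed here. No build is named with the arrays.

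Signals were taken as log2(signal + 16), and the 45037 non-control probe sets were each fitted with limma 3.58.1 (R 4.3.3), a mean per group over all 6 arrays, an eBayes trend of variance on level, two-sided tests, Benjamini-Hochberg adjustment, threshold 0.05, no filter on dim probe sets. TAK1-deficient cells were not compared with the wild-type Igλ+ ones, since genotype and light chain differ together. The leading probe set of a gene is the one with the highest mean over the 4 wild-type arrays. All members were named, and from each other list up to 4 genes, those with the largest difference among genes that passed without overlap. The title suffix "-rep" marks replicate 2, and no label states that replicates are separate animals. The p-values thus reflect the spread of these arrays alone, which may be technical. Precision is limited by how few arrays there are. The members, lists and tests were chosen with earlier results of these data known. The code was tested on simulated data. Alternatives were other pseudocounts, filters and scalings, 1 probe set per gene, no trend, fewer arrays and a replicate block. Figures were drawn with matplotlib 3.10.9.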

Additional observations from a re-analysis of the deposited data

How the results depend on the processing

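In TAK1-deficient against wild-type Igκ+ cells 8 member probe sets passed, 6 to 11 under the alternatives that test all 13, 6 and 7 with a filter on dim probe sets, and 5 of 8 tested genes with 1 probe set per gene, fewer because fewer were tested. Leaving out 1 array gave 6 to 7. Of the other pathway genes 19 passed, 17 to 19 without 1 array, and 10 with the level adjustment, where the cause was not tested. Over all probe sets 35414 passed, 19584 with the level adjustment, 20939 and 13929 with the filters at the 40th and 60th percentile and 9519 of 11882 genes with 1 probe set per gene. In wild-type Igλ+ against Igκ+ cells 0 passed under every alternative run, for members and for the other pathway genes, also without any 1 array.

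The samples share only a replicate number. Their deviations from the group means correlated at -0.000288, 0.00204 and 0.194 between the pairs of groups. With the replicate block 7 member probe sets and 19 other pathway genes passed in the genotype comparison and 0 and 0 in the light chain comparison.

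For the 10 leading probe sets, 123 of 152 alternatives kept direction and call in the genotype comparison and 134 of 152 in the light chain comparison, where no call was made. In the genotype comparison the values with the other sign were, with quantile normalization, median centring, spiked-control scaling and the level adjustment, -1.84, -1.83, -2.27 and -1.07 for Cd27 (0.55 as deposited) and, as fitted values only, -1.57, -2.36, -1.34 and -2.63 for Tnfrsf1a (0.02). They were -0.11 and -0.87 for Tnfrsf17 with median centring and spiked-control scaling, and 0.77 for Tnfrsf13c and 0.35 for Tnfrsf1b with the level adjustment. The Tnfrsf1a fit ranged from -0.086 to 0.12 without 1 array and was -0.044 without TAK1-deficient replicate 2. Because Tnfrsf1a was not above the unspiked controls on either TAK1-deficient array, neither the size nor the sign of these values can be read as a change. In the light chain comparison median centring and spiked-control scaling gave -0.016 and -0.046 for Cd27, -0.12 and -0.16 for Cd40 and -0.027 and -0.062 for Lta. Without 1 array the ranges were -0.66 to 0.92 for Cd27 (-0.056 without Igκ+ replicate 1), -0.058 to 0.12 for Cd40 (-0.014 without Igλ+ replicate 1), -0.37 to 0.62 for Lta (-0.15 without Igκ+ replicate 2), -0.17 to 0.11 for Ltb (0.035 without Igλ+ replicate 2), -0.72 to 0.089 for Tnf, -0.41 to 0.037 for Tnfrsf13b, -0.44 to 2.63 for Tnfrsf1a and -0.15 to 0.69 for Tnfrsf1b. Where 1 array was left in a group, its variance was taken from the other groups. Signals near the unspiked controls limit what can be read from dim members.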
